A study of Homo sapiens with 16 samples.

Results

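RNA of SH-SY5Y cells differentiated on electrically stimulated PEDOT:PSS films was set against RNA of cells differentiated on ordinary culture plates. The comparison used 4 of the study's 16 libraries, 2 from each condition, assigned by their labels with no measured value involved. All 69222 genes of the deposited count table were considered, 36835 had a read in some library, and 18081 had enough reads to be tested. SH-SY5Y is a human neuroblastoma line that takes on neuron-like properties when serum is withdrawn, and PEDOT:PSS is a conducting polymer blend used for electrodes. The stimulated cells grew on PEDOT:PSS coated with poly-L-lysine and laminin and received a square wave of 0.1 V peak to peak at 1 Hz during the last 4 days, 8 h on each. The plate cells received no stimulation, and the sources used here give no coating for the plates. Both groups went through the same differentiation: serum was stepped down (day 2, 5%; day 3, 2.5%; day 5, 1%), retinoic acid at 10 µM was present between day 3 and day 6, and BDNF at 50 ng/mL followed for 4 days. Unstimulated PEDOT:PSS films, stimulated P(rGO) films and stimulated ITO films, with 2 libraries each, went through the same protocol and are used below for side-by-side values. The stimulated film differs from the plates in both the film and the stimulation, and possibly in the coating, so their parts in this contrast cannot be told apart. Nothing in the labels states that the 2 libraries of a group are separate cultures, so a p-value here reflects library-to-library spread, which may be technical.

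Growth factors such as BDNF act through receptor tyrosine kinases and the ERK pathway, which switches on immediate early transcription factors and, with a delay, the phosphatases and Sprouty proteins that limit it. In neuroblastoma and sympathetic neurons the same input raises precursors of secreted peptides, including VGF and secretogranin II. Axon guidance ligands, matrix proteins and adhesion receptors tell a growing neurite about the surface it is on.

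Each of the 16 libraries had between 15600410 and 20851000 reads assigned to genes, and the 2 of the stimulated film had 18290457 and 18136286, against 18455213 and 19756694 on plates. Levels below are CPM, reads scaled to edgeR's effective library sizes, and do not correct for gene length. The stimulated-film libraries were close to each other, with a biological coefficient of variation of 6.88%, and the plate libraries were farther apart, at 18.1%. The spread used in the tests was drawn from all 8 groups of the study, among them untreated control cells, whose libraries were at 36.2%. Plate replicate 1 had 8.58% of its reads on mitochondrially encoded genes and plate replicate 2 had 5.42%, with 5.67% and 5.76% in the stimulated-film libraries. Sympathetic identity genes of the line were present in both groups: HAND2, a transcription factor of these cells, had 944 and 851 CPM on the stimulated film, against 858 and 896 CPM on plates, and GATA3, another, had 245 and 234 CPM on the stimulated film, against 282 and 267 CPM on plates. TH, which encodes the enzyme that starts catecholamine synthesis, had a low level that differed between the stimulated-film libraries. It had 3.72 and 0.599 CPM on the stimulated film, against 0.597 and 0.849 CPM on plates. Of the 14 Schwann and glial markers listed, 5 had enough reads to be tested, with summed levels of 167.9 and 168.6 CPM on the stimulated film, against 157.3 and 207.0 CPM on plates. Of the 15 endothelial and blood markers, 5 were tested, with sums of 5.01 and 4.74 CPM, against 4.45 and 7.99 CPM on plates. In bulk RNA, fewer cells of a type and less RNA per cell cannot be told apart.

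Cells on stimulated PEDOT:PSS had higher RNA of 5 immediate early transcription factors, 3 feedback inhibitors of ERK signalling, 4 peptide-related genes and NQO1. They had lower RNA of EPAS1, KIT and PHLDA1, the last being another ERK feedback gene. None of the genes counted or named so far in this paragraph kept its call in every alternative analysis described below. Guidance genes were called in both directions, 3 higher and 4 lower, as were matrix glycoprotein and proteoglycan genes, 1 higher and 1 lower. edgeR's quasi-likelihood test with Benjamini-Hochberg adjustment called 226 genes at the 0.05 level, 1.25% of those tested. Of these, 143 rose, 0.791% of genes tested, and 83 fell, 0.459%. Counts of called list members, here and below, stand beside these shares. The lists were chosen with earlier results of these data known. In all 226, the stimulated-film libraries lay wholly above or wholly below the plate libraries, which was also true of 8970 of all 18081 genes (49.6%). The median log2 fold change over all genes was -0.02, the quartiles were -0.26 and 0.21, and 2336 genes had an unadjusted p under 0.05.

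The number of calls rested on every library. It was 18 without replicate 1 of the stimulated film, 43 without its replicate 2, 16 without plate replicate 1 and 349 without plate replicate 2. In these fits the remaining library of a group is assumed to vary like those of the other groups. Of the 226 calls, 11 were made in all 10 alternative analyses, including the 4 that leave out a library. The 8 that rose were SGK1, CDH11, CA10, DAPL1, PTPRE, B4GALT6, OSBPL3 and PLS3, and the 3 that fell were SLIT1, PDZRN3 and RADIL. The naming rule, given with the processing, takes 59 called genes. Of these, 8 kept their call without replicate 1 of the stimulated film, 16 without its replicate 2, 10 without plate replicate 1 and 51 without plate replicate 2. None of the 59 changed direction in any alternative. Their stimulated-film and plate libraries do not overlap, so leaving out a library could hardly have turned a direction.

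**Figure D1:**
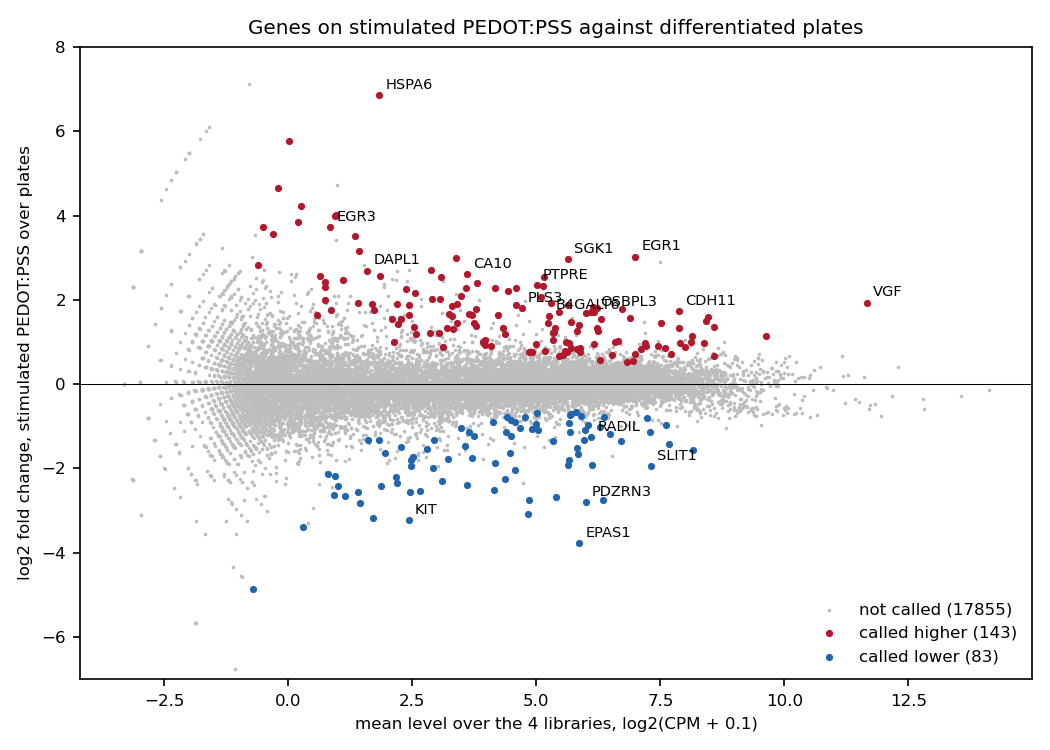
Each point is 1 of the 18081 genes; the horizontal axis gives the mean level as log2(CPM + 0.1) over the 2 stimulated-film and 2 plate libraries, and the vertical axis gives the log2 fold change of stimulated PEDOT:PSS over plates. The 143 red points were called higher and the 83 blue points lower; the grey points, 17855 genes, were not called, and some of them at low levels have larger fold changes than the called genes.

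Among immediate early genes, 5 of the 21 tested rose and none fell, with a median log2 fold change of 0.73 over the list and -0.02 over all genes. EGR1, a zinc-finger factor induced by growth factors and depolarisation, had 236 and 218 CPM on the stimulated film, against 17.4 and 38.3 CPM on plates (log2 fold change 3.02 ± 0.55, adjusted p = 0.015; the value after ± is the standard error here and below). EGR3, a relative of EGR1, had 2.59 and 3.703 CPM on the stimulated film, against 0.0543 and 0.399 CPM on plates (log2 fold change 3.72 ± 0.54, adjusted p = 0.0056). Both stimulated-film libraries were well above both plates for these genes, and within the plates replicate 1 was the lower. The other 3 that rose were JUNB and FOSL2, subunits of the AP-1 dimer, and KLF10, a repressor described as induced by TGF-beta. JUNB had 107 and 107 CPM on the stimulated film, against 27.2 and 57.4 CPM on plates (log2 fold change 1.34 ± 0.29, adjusted p = 0.035), and FOSL2 had 16.3 and 14.2 CPM on the stimulated film, against 6.57 and 4.59 CPM on plates (log2 fold change 1.45 ± 0.26, adjusted p = 0.014). KLF10 differed less, with 74.4 and 74.3 CPM on the stimulated film, against 40.4 and 47.2 CPM on plates (log2 fold change 0.76 ± 0.13, adjusted p = 0.013). FOS, the partner of the JUN proteins, had 14.7 and 14.1 CPM on the stimulated film, against 1.47 and 3.79 CPM on plates, and the test did not call it (log2 fold change 2.44 ± 0.59, adjusted p = 0.064). ARC, a cytoskeletal gene transcribed in active neurons, was likewise not called, at 19.1 and 14.5 CPM on the stimulated film, against 5.32 and 4.59 CPM on plates (log2 fold change 1.76 ± 0.43, adjusted p = 0.067). JUN had 51.00 and 45.3 CPM on the stimulated film, against 83.2 and 69.7 CPM on plates, the opposite order, without a call (log2 fold change -0.67 ± 0.39, adjusted p = 0.52).

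Of 16 ERK feedback genes, 3 rose and 1 fell, with a list median of 0.14. Without plate replicate 1 that median was 0.019, and without plate replicate 2 it was 0.24. DUSP5, a nuclear phosphatase that removes phosphate from ERK, had 25.7 and 20.5 CPM on the stimulated film, against 3.64 and 5.14 CPM on plates (log2 fold change 2.39 ± 0.33, adjusted p = 0.0042). SPRY2, a Sprouty inhibitor of receptor tyrosine kinase signalling, had 52.6 and 66.2 CPM on the stimulated film, against 23.8 and 23.6 CPM on plates (log2 fold change 1.33 ± 0.22, adjusted p = 0.0092). SPRY1 had 96.98 and 125 CPM on the stimulated film, against 14.2 and 47.6 CPM on plates (log2 fold change 1.84 ± 0.37, adjusted p = 0.028), the plates differing from each other more than the films did. PHLDA1 was the member that fell, with 4.37 and 7.52 CPM on the stimulated film, against 17.05 and 22.8 CPM on plates (log2 fold change -1.74 ± 0.30, adjusted p = 0.013). DUSP6, the cytoplasmic ERK phosphatase, had 229.6 and 259 CPM on the stimulated film, against 179.5 and 231 CPM on plates and was not called (log2 fold change 0.25 ± 0.17, adjusted p = 0.59), and the ETS factors ETV4 and ETV5 had log2 fold changes of 0.09 and 0.08. These 3 are among the 12 members that were not called.

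SGK1, a kinase induced by serum and by glucocorticoids, lies at chr6:134169246-134318112 on the minus strand (GENCODE 29, GRCh38). It had 96.3 and 78.7 CPM on the stimulated film, against 6.41 and 15.8 CPM on plates (log2 fold change 2.97 ± 0.35, adjusted p = 0.0013), and was the 1 called member of 12 glucocorticoid-type targets, whose median was 0.03 (-0.16 without plate replicate 1 and 0.098 without plate replicate 2). Over all alternatives its log2 fold change ran from 2.47 to 3.78. INHBA encodes the beta-A subunit of activins and inhibins. It had 60.5 and 60.7 CPM on the stimulated film, against 6.73 and 14.03 CPM on plates (log2 fold change 2.54 ± 0.41, adjusted p = 0.0088), and was the 1 called member of 15 activin, BMP and ID genes. The 2 film libraries were nearly equal for INHBA and the plates lay far below them. ID1, a target of BMP signalling in the same list, had 8.63 and 6.86 CPM on the stimulated film, against 1.303 and 1.098 CPM on plates without a call (log2 fold change 2.69 ± 0.78, adjusted p = 0.12). PTPRE, a protein tyrosine phosphatase, had 58.7 and 48.5 CPM on the stimulated film, against 7.76 and 13.2 CPM on plates (log2 fold change 2.35 ± 0.25, adjusted p = 0.0012). CA10, a carbonic anhydrase relative that lacks enzyme activity and binds neurexins, had 20.4 and 20.7 CPM on the stimulated film, against 2.12 and 4.54 CPM on plates (log2 fold change 2.62 ± 0.29, adjusted p = 0.0012). DAPL1 had 4.798 and 5.28 CPM on the stimulated film, against 0.489 and 1.05 CPM on plates (log2 fold change 2.69 ± 0.33, adjusted p = 0.003), and these 3 genes kept their call in every alternative. KLHDC8A (18.4 and 18.4 against 0.977 and 3.595 CPM; log2 fold change 2.99 ± 0.55, adjusted p = 0.017) and SERTM1 (10.9 and 14.1 against 0.7600 and 2.996 CPM; log2 fold change 2.71 ± 0.51, adjusted p = 0.019) rose as well, the first of each pair of values being the stimulated film.

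**Figure D2:**
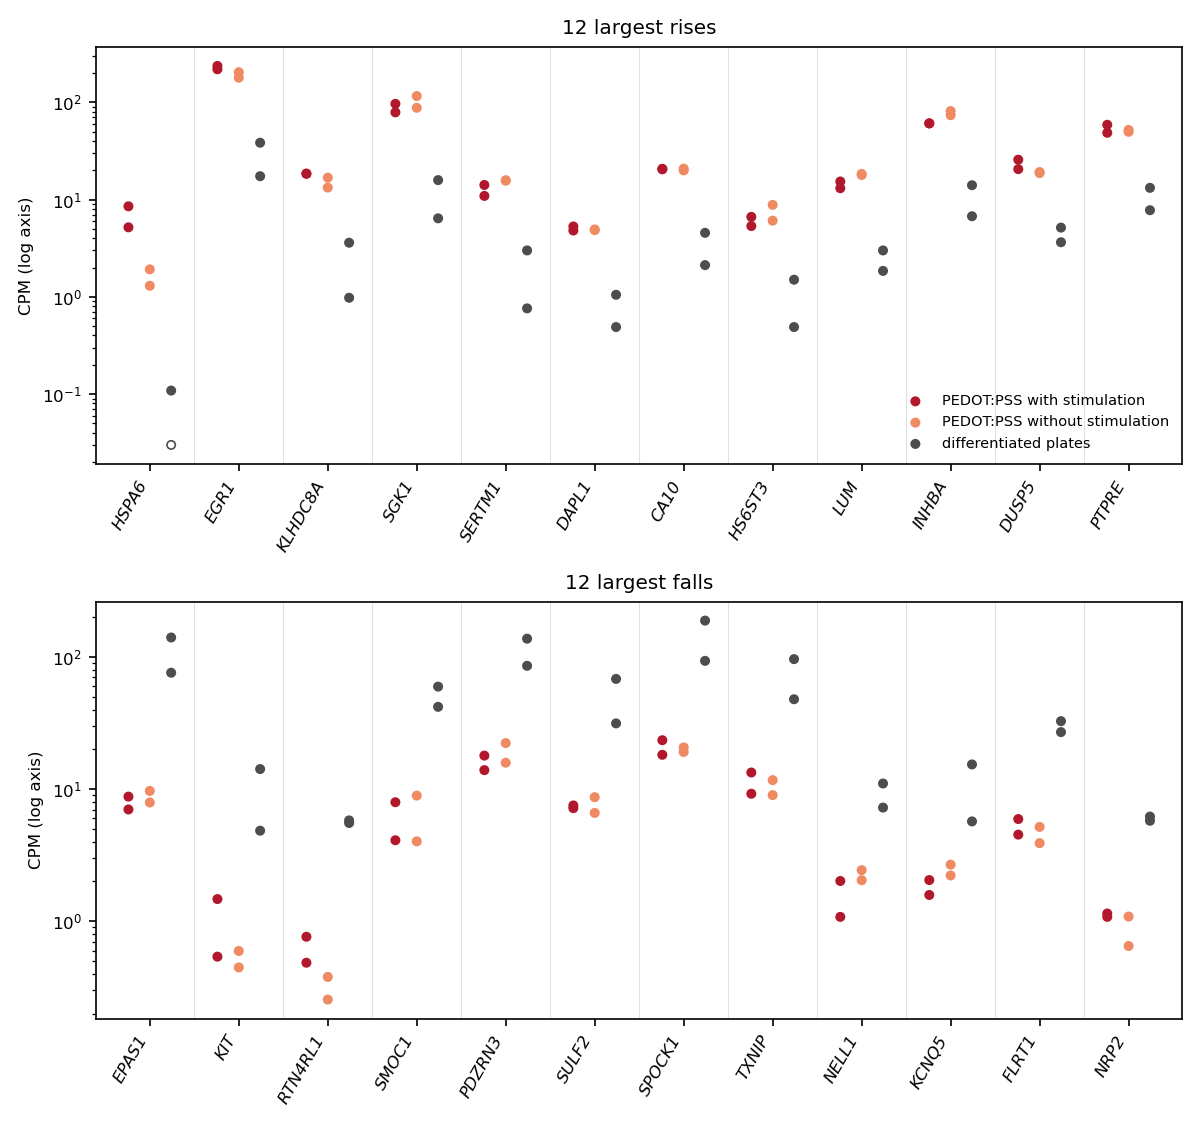
CPM on a log axis in each library for the 12 largest rises (top) and 12 largest falls (bottom) chosen by the naming rule, with the stimulated film left, the unstimulated film in the middle and the plates right of each gene; 1 point is 1 library, and the open circle is the HSPA6 plate library with no reads, drawn at the bottom of the axis. In each gene the 2 stimulated-film points lie wholly to a side of the 2 plate points, as for EPAS1 at 7.01 and 8.77 CPM against 140.3 and 75.9 CPM.

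Of 14 granin and peptide genes tested, 4 rose and none fell, with a list median of 0.29. Without plate replicate 1 that median was 0.07, and without plate replicate 2 it was 0.81. VGF, a precursor of secreted peptides that neurotrophins induce, had 5673 and 4579.7 CPM on the stimulated film, against 975 and 1704 CPM on plates (log2 fold change 1.94 ± 0.43, adjusted p = 0.041). Its gene lies at chr7:101162509-101165593 on the minus strand (GENCODE 29, GRCh38). SCG2, which encodes secretogranin II, had 1072 and 1098 CPM on the stimulated film, against 311 and 676 CPM on plates (log2 fold change 1.14 ± 0.26, adjusted p = 0.048). Both film libraries exceeded both plates for both genes, and plate replicate 1 was the lowest library. VIP, a vasodilating neuropeptide, had 57.6 and 58.98 CPM on the stimulated film, against 9.23 and 13.9 CPM on plates (log2 fold change 2.33 ± 0.39, adjusted p = 0.011). PAM, the enzyme that amidates peptide hormones at their C terminus, had 96.98 and 88.8 CPM on the stimulated film, against 60.7 and 64.6 CPM on plates (log2 fold change 0.57 ± 0.12, adjusted p = 0.03). GAL, the galanin precursor, had 202 and 219 CPM on the stimulated film, against 63.9 and 88.5 CPM on plates without a call (log2 fold change 1.46 ± 0.36, adjusted p = 0.067). CHGB, the chromogranin B precursor and a granule protein like VGF, had 1276 and 1149 CPM on the stimulated film, against 1145 and 1176 CPM on plates (log2 fold change 0.06 ± 0.21, adjusted p = 0.94), and the libraries overlapped.

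Promoter windows of VGF, BAG3 and HSPA6 are shown because these called genes hold some of the motifs searched for. They were picked by motif and do not stand for the called genes as a set. Other motifs, such as the heat shock element, were not searched for and are not marked. The windows run 5′ to 3′ over the 250 bases before the annotated RefSeq start (GRCh38.p14), at chr7:101165570-101165819 on the minus strand, chr10:119651130-119651379 on the plus strand and chr1:161524290-161524539 on the plus strand. Capitals mark the cyclic AMP response element TGACGTCA and the E-box CACGTG in VGF, and the AP-1 site TGACTCA in BAG3; in HSPA6 they mark the AP-1 site as read on the other strand, TGAGTCA.
VGF: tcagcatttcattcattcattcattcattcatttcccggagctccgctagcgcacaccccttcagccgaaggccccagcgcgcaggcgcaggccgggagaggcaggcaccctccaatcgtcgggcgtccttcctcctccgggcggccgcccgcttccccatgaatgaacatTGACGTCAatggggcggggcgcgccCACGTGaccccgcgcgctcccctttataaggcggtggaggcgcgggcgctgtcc
BAG3: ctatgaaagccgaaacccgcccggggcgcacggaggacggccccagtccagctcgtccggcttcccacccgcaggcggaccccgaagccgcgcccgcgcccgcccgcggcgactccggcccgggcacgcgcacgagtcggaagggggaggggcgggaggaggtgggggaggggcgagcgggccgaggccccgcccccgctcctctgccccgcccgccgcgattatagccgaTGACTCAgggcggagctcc
HSPA6: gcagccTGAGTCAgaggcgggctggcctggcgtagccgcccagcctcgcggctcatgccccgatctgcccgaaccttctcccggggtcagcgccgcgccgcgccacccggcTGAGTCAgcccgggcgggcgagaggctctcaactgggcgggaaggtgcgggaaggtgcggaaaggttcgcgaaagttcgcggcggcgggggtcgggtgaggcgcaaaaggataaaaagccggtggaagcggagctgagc
The VGF response element begins 79 bases before the start and its E-box 54 bases before. The AP-1 site of BAG3 begins 19 bases before the start, and those of HSPA6 begin 244 and 139 bases before.

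Windows of 250 bases before and 50 after the start were found for 108 of the 143 genes that rose and 56 of the 83 that fell. The AP-1 letters, on either strand, were in 8 windows of genes that rose (7.41%), those of BAG3, CAST, CD63, FOSL2, HSPA6, PTN, SERPINB8 and VAV3. They were in 1 window of genes that fell (1.79%), that of KDM4C, in 2.97% of the 11600 windows of tested genes and in 4.92% of all 27305 windows. The cyclic AMP response element was in 1 window of genes that rose (0.926%), that of VGF, in none of genes that fell, in 3.18% of windows of tested genes and in 1.98% of all windows. Of the 24 granin and peptide genes listed, tested or not, 17 had a window and 5 of these held it (29.4%). VGF was the only called gene among them. The E-box was in 6.48% of windows of genes that rose, 8.93% of those that fell, 9.61% of tested genes and 7.43% of all. The ETS letters CCGGAAGT were in 1.85% of windows of genes that rose, none of those that fell, 8.22% of tested genes and 4.44% of all. The sterol element TCACCCCAC was in no window of a called gene, in 0.362% of tested genes and in 0.425% of all. A match of letters describes these windows and was not tested against expression.

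Guidance genes moved in both directions: of 44 tested, 3 rose and 4 fell, with a median of 0.02 (-0.04 without plate replicate 1 and 0.15 without plate replicate 2). SLIT1, a secreted ligand of ROBO receptors, had 60.4 and 69.9 CPM on the stimulated film, against 262 and 239.6 CPM on plates (log2 fold change -1.94 ± 0.22, adjusted p = 0.0012). It lies at chr10:96998038-97185920 on the minus strand. The 2 plates were close to each other, and SLIT1 kept its call in every alternative, between -2.05 and -1.84 on the log2 scale. SLIT3 had 349.7 and 372 CPM on the stimulated film, against 487 and 512 CPM on plates without a call (log2 fold change -0.47 ± 0.19, adjusted p = 0.3). Among semaphorins, the transmembrane SEMA6A fell, with 8.03 and 7.19 CPM on the stimulated film, against 35.01 and 20.97 CPM on plates (log2 fold change -1.88 ± 0.26, adjusted p = 0.0041). The secreted SEMA3C rose, with 41.2 and 33.98 CPM on the stimulated film, against 12.3 and 8.19 CPM on plates (log2 fold change 1.88 ± 0.33, adjusted p = 0.014). SEMA3D, also secreted, rose at a low level, with 2.21 and 1.96 CPM on the stimulated film, against 0.109 and 0.0999 CPM on plates (log2 fold change 4.24 ± 0.74, adjusted p = 0.013). The receptors split as well. NRP2, a co-receptor of secreted semaphorins, had 1.08 and 1.14 CPM on the stimulated film, against 5.75 and 6.19 CPM on plates (log2 fold change -2.42 ± 0.34, adjusted p = 0.0046), and PLXNA2, a plexin that transmits their signal, had 488 and 394 CPM on the stimulated film, against 174 and 278 CPM on plates (log2 fold change 0.97 ± 0.21, adjusted p = 0.036). RTN4RL1, a relative of the Nogo receptor, had 0.485 and 0.762 CPM on the stimulated film, against 5.54 and 5.79 CPM on plates (log2 fold change -3.17 ± 0.44, adjusted p = 0.0042), with the 2 plates nearly equal. FLRT1, a leucine-rich adhesion protein outside the list, had 5.93 and 4.52 CPM on the stimulated film, against 26.98 and 32.7 CPM on plates (log2 fold change -2.51 ± 0.43, adjusted p = 0.011).

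EPAS1 encodes HIF-2alpha, an oxygen-regulated transcription factor, and lies at chr2:46293667-46386703 on the plus strand. It had 7.01 and 8.77 CPM on the stimulated film, against 140.3 and 75.9 CPM on plates (log2 fold change -3.78 ± 0.62, adjusted p = 0.0095). It was the 1 called member of 20 hypoxia genes, whose median was -0.07 (-0.098 to -0.035 over the alternatives). The receptor KIT fell, with 0.539 and 1.47 CPM on the stimulated film, against 14.2 and 4.84 CPM on plates (log2 fold change -3.23 ± 0.55, adjusted p = 0.011), while its ligand KITLG rose, with 58.5 and 51.1 CPM on the stimulated film, against 16.1 and 23.9 CPM on plates (log2 fold change 1.45 ± 0.22, adjusted p = 0.006). These were the 2 called members of 19 neurotrophin and growth factor genes. NTRK2, the BDNF receptor, had 349.7 and 448 CPM on the stimulated film, against 392 and 571 CPM on plates, with overlapping libraries (log2 fold change -0.27 ± 0.36, adjusted p = 0.83). NEUROG2, a proneural factor, had 2.05 and 3.65 CPM on the stimulated film, against 16.9 and 11.1 CPM on plates (log2 fold change -2.30 ± 0.48, adjusted p = 0.032) and was the 1 called member of 18. MYCN, the neuroblastoma oncogene, had 2.59 and 2.29 CPM on the stimulated film, against 9.99 and 6.94 CPM on plates (log2 fold change -1.79 ± 0.35, adjusted p = 0.023). MAOB, a mitochondrial enzyme that breaks down amines, had 103 and 109 CPM on the stimulated film, against 35.7 and 52.6 CPM on plates (log2 fold change 1.26 ± 0.21, adjusted p = 0.011). MYCN and MAOB were the called members of 23 catecholamine and adrenergic genes, whose median was -0.28. DBH, the enzyme that makes noradrenaline, had 492 and 509 CPM on the stimulated film, against 1058 and 905 CPM on plates without a call (log2 fold change -0.97 ± 0.26, adjusted p = 0.096).

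Cell cycle and survival regulators gave 1 call each. CDK6, a kinase of the G1 phase, had 101 and 116 CPM on the stimulated film, against 222 and 159 CPM on plates (log2 fold change -0.81 ± 0.17, adjusted p = 0.03), and BCL2L11, the pro-apoptotic BIM gene, had 42.05 and 47.00 CPM on the stimulated film, against 74.5 and 74.9 CPM on plates (log2 fold change -0.75 ± 0.16, adjusted p = 0.039). IGFBP4, a binding protein of insulin-like growth factors, rose, with 185 and 167 CPM on the stimulated film, against 84.4 and 114 CPM on plates (log2 fold change 0.82 ± 0.16, adjusted p = 0.019). TXNIP, which binds thioredoxin and restrains glucose uptake, fell, with 9.22 and 13.3 CPM on the stimulated film, against 96.2 and 47.8 CPM on plates (log2 fold change -2.67 ± 0.47, adjusted p = 0.014).

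Among 32 potassium channel genes 1 rose and 3 fell, beside 1.25% called of all genes tested. KCNT1 had 116 and 78.1 CPM on the stimulated film, against 24.1 and 36.5 CPM on plates (log2 fold change 1.68 ± 0.36, adjusted p = 0.037). KCNQ5, of the M-current family, had 2.05 and 1.58 CPM on the stimulated film, against 15.4 and 5.69 CPM on plates (log2 fold change -2.53 ± 0.46, adjusted p = 0.016). KCNH1 had 9.596 and 8.93 CPM on the stimulated film, against 52.01 and 24.2 CPM on plates (log2 fold change -2.04 ± 0.39, adjusted p = 0.021), and KCNG1, a modifier subunit, had 6.74 and 5.66 CPM on the stimulated film, against 18.6 and 15.6 CPM on plates (log2 fold change -1.46 ± 0.30, adjusted p = 0.031). For the 3 that fell the libraries did not overlap, and the plates differed most for KCNQ5. SCN7A, a sodium-sensing channel, was the 1 called member of 12 sodium channel genes, with 20.3 and 19.01 CPM on the stimulated film, against 2.33 and 5.69 CPM on plates (log2 fold change 2.28 ± 0.45, adjusted p = 0.024). ATP2B1, a plasma membrane calcium pump, rose, with 238 and 258 CPM on the stimulated film, against 119.9 and 153 CPM on plates (log2 fold change 0.86 ± 0.15, adjusted p = 0.014). GRIN1, the obligatory NMDA receptor subunit, fell, with 31.6 and 31.6 CPM on the stimulated film, against 85.8 and 54.2 CPM on plates (log2 fold change -1.14 ± 0.22, adjusted p = 0.022). MAP1A, a microtubule-associated protein of neurites, rose, with 429 and 345 CPM on the stimulated film, against 124 and 229 CPM on plates (log2 fold change 1.14 ± 0.22, adjusted p = 0.023), and was the 1 called member of 29 neurite cytoskeleton genes. None of 35 synaptic vesicle and active zone genes was called, and the smallest p was that of SYN2, a synapsin, with 81.3 and 72.7 CPM on the stimulated film, against 42.3 and 55.02 CPM on plates (log2 fold change 0.66 ± 0.16, adjusted p = 0.057).

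Matrix and surface genes moved in both directions. Of 32 matrix glycoprotein and proteoglycan genes, LUM rose and SPOCK1 fell. LUM, the collagen-binding proteoglycan lumican, had 15.3 and 13.1 CPM on the stimulated film, against 1.85 and 2.996 CPM on plates (log2 fold change 2.54 ± 0.37, adjusted p = 0.0056), and SPOCK1, the proteoglycan testican, had 18.2 and 23.4 CPM on the stimulated film, against 188 and 93.4 CPM on plates (log2 fold change -2.76 ± 0.58, adjusted p = 0.032). LUM and PDGFRA, a growth factor receptor that fell (17.5 and 27.3 against 99.6 and 55.9 CPM; log2 fold change -1.79 ± 0.36, adjusted p = 0.028), are also fibroblast markers. Of 13 such markers 9 were tested, and their summed level was 360.8 and 333.6 CPM on the stimulated film, against 386.5 and 338.3 CPM on plates. The part of other cells in these 2 results was not tested. Outside the lists, 2 enzymes that modify heparan sulfate were called. HS6ST3, which adds sulfate groups, had 6.63 and 5.34 CPM on the stimulated film, against 0.489 and 1.498 CPM on plates (log2 fold change 2.57 ± 0.58, adjusted p = 0.046), and SULF2, which removes them, had 7.17 and 7.52 CPM on the stimulated film, against 68.2 and 31.4 CPM on plates (log2 fold change -2.76 ± 0.54, adjusted p = 0.022). SMOC1, a calcium-binding matrix protein, had 4.097 and 7.95 CPM on the stimulated film, against 41.9 and 59.6 CPM on plates (log2 fold change -3.07 ± 0.52, adjusted p = 0.011), and NELL1, a secreted protein, had 1.08 and 2.02 CPM on the stimulated film, against 11.02 and 7.24 CPM on plates (log2 fold change -2.56 ± 0.46, adjusted p = 0.014).

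All 3 called members of 18 plasminogen and protease genes fell. MMP15, a membrane-bound metalloprotease, had 58.01 and 59.3 CPM on the stimulated film, against 128 and 169 CPM on plates (log2 fold change -1.34 ± 0.19, adjusted p = 0.0051). ADAMTS1, a secreted metalloprotease, had 49.2 and 53.5 CPM on the stimulated film, against 129 and 78.4 CPM on plates (log2 fold change -1.01 ± 0.20, adjusted p = 0.027). SERPINE2, an inhibitor of serine proteases, had 0.162 and 0.218 CPM on the stimulated film, against 3.15 and 0.949 CPM on plates (log2 fold change -3.38 ± 0.73, adjusted p = 0.037), a level of few reads. The list's median was 0.01 (-0.02 without plate replicate 1 and 0.07 without plate replicate 2). Conversely, all 3 called members of 29 focal adhesion and actin genes rose, with a list median of 0.35 (0.23 without plate replicate 1 and 0.54 without plate replicate 2). FERMT2, a kindlin and activator of integrins, had 155 and 162 CPM on the stimulated film, against 86.2 and 105 CPM on plates (log2 fold change 0.73 ± 0.13, adjusted p = 0.015). TMSB4X, an actin-sequestering peptide, had 199 and 186 CPM on the stimulated film, against 79.4 and 125 CPM on plates (log2 fold change 0.91 ± 0.20, adjusted p = 0.041). The adhesion receptors CDH11, a mesenchymal cadherin, and ITGA4, an integrin chain, rose too. CDH11 had 364 and 354 CPM on the stimulated film, against 83.3 and 132 CPM on plates (log2 fold change 1.73 ± 0.20, adjusted p = 0.0012) and kept its call in every alternative. ITGA4 had 5.77 and 4.03 CPM on the stimulated film, against 1.47 and 1.15 CPM on plates (log2 fold change 1.90 ± 0.40, adjusted p = 0.032). PDZRN3, a ubiquitin ligase, fell, with 13.9 and 17.9 CPM on the stimulated film, against 137 and 85.7 CPM on plates (log2 fold change -2.81 ± 0.32, adjusted p = 0.0012), also in every alternative. None of 18 collagen genes was called.

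**Figure D3:**
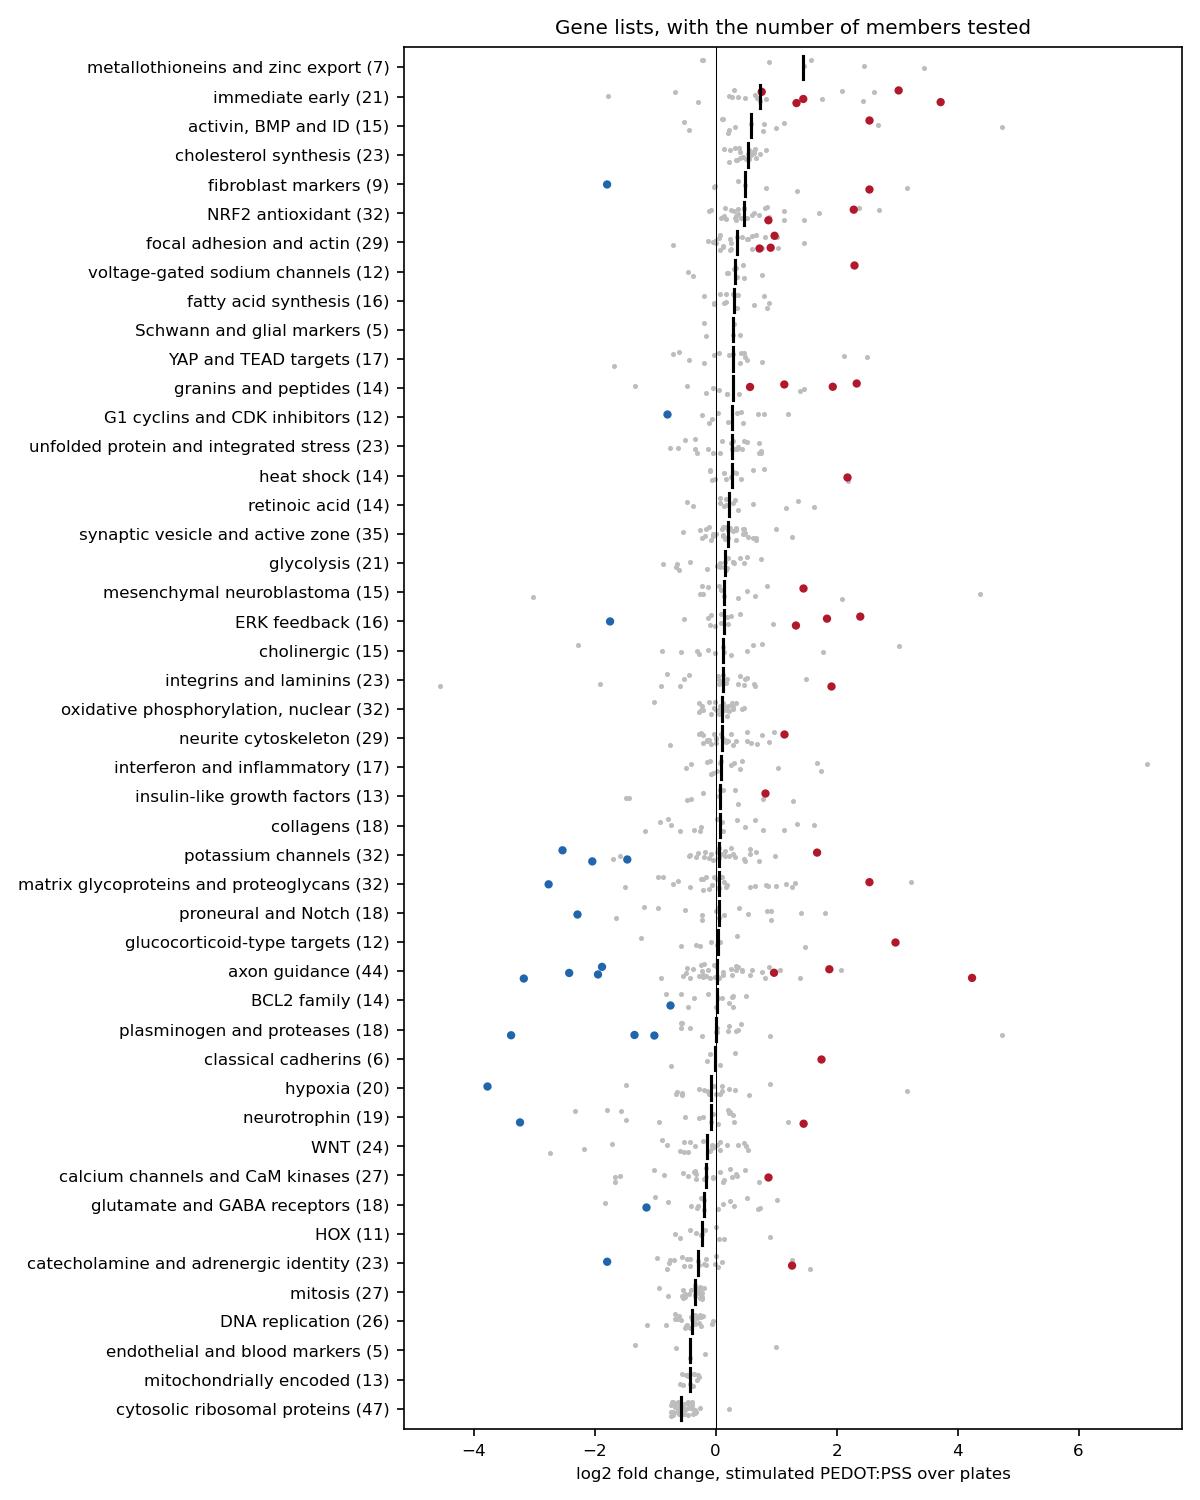
Log2 fold change of stimulated PEDOT:PSS over plates (horizontal axis) for the tested members of 47 gene lists, ordered by their medians (black bars), with the number tested in brackets; red and blue points were called higher and lower, grey points were not called. Immediate early genes have 5 red points and a median of 0.73, and the 47 ribosomal protein genes lie together at a median of -0.57 with no call.

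Stress genes gave few calls of large size. HSPA6, a strictly inducible HSP70 gene, had 8.52 and 5.17 CPM on the stimulated film, against 0.109 and 0 CPM on plates, that is 253 reads in the 2 film libraries and 2 in the plates. The ratio was 132, with a 95% counting interval of 36.1 to 1090, and the test called it (adjusted p = 0.022). A near-identical copy, HSPA7, exists, and reads that fit both may have been dropped, so the HSPA6 level is uncertain. BAG3, an HSP70 co-chaperone, had 10.6 and 8.28 CPM on the stimulated film, against 1.74 and 2.45 CPM on plates (log2 fold change 2.17 ± 0.46, adjusted p = 0.032) and was the 1 called member of 14 heat shock genes tested in the list, whose median was 0.27. HSPA8, a constitutive HSP70 gene, had 1549 and 1475 CPM on the stimulated film, against 1387 and 1356 CPM on plates and was not called (log2 fold change 0.14 ± 0.33, adjusted p = 0.91). NQO1, a quinone reductase, had 43.6 and 36.2 CPM on the stimulated film, against 6.57 and 9.79 CPM on plates (log2 fold change 2.28 ± 0.34, adjusted p = 0.006). TXNRD1, the thioredoxin reductase, had 343 and 318 CPM on the stimulated film, against 181 and 180.0 CPM on plates (log2 fold change 0.87 ± 0.17, adjusted p = 0.023). These were the 2 called members of 32 NRF2 antioxidant genes, of which 30 had a positive fold change, with a median of 0.47. Over all genes tested, 47.2% had a positive fold change. SLC7A11, the cystine transporter of that list, had 10.8 and 7.57 CPM on the stimulated film, against 1.36 and 1.45 CPM on plates without a call (log2 fold change 2.70 ± 0.66, adjusted p = 0.066). None of 7 metallothionein and zinc genes was called: MT2A had 11.9 and 5.45 CPM on the stimulated film, against 1.74 and 1.45 CPM on plates (log2 fold change 2.44 ± 0.94, adjusted p = 0.27), and replicate 1 of the film was the highest library. CCL2, a chemokine, had 35 reads in the stimulated film and none in the plates. Against a floor of 3 reads over the plates the ratio was 12.2, the 95% counting interval of the ratio begins at 9.37, and the test did not call it (adjusted p = 0.15).

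**Figure D4:**
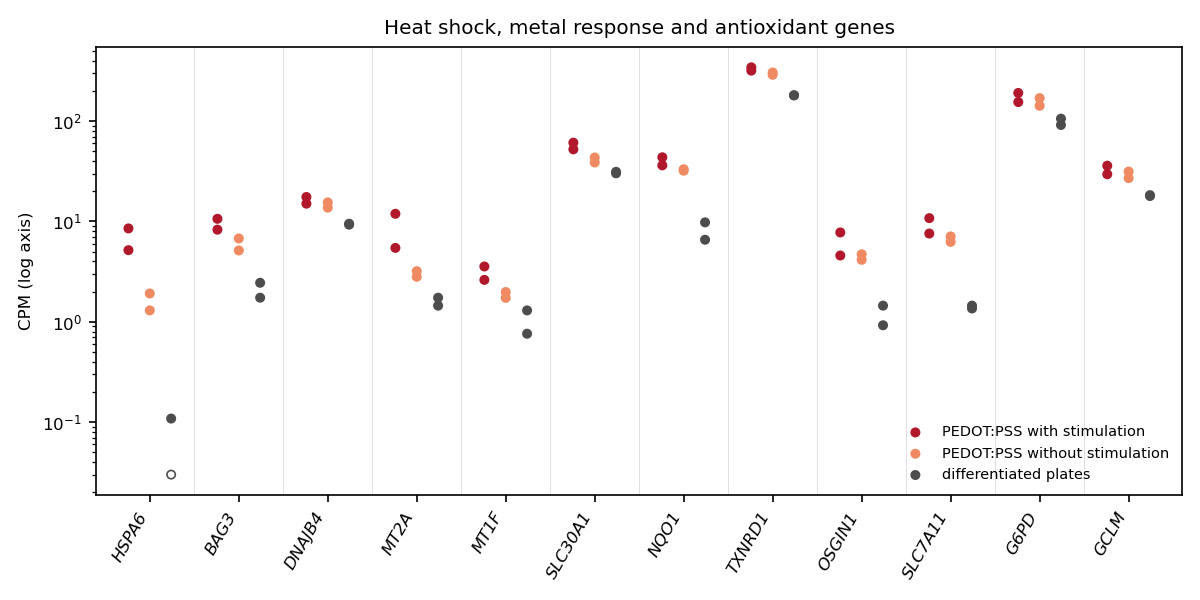
CPM on a log axis for 12 heat shock, metal response and antioxidant genes, chosen after their values were seen, with the stimulated film left, the unstimulated film in the middle and the plates right; 1 point is 1 library and the open circle is the HSPA6 plate library with no reads. NQO1 has 43.6 and 36.2 CPM on the stimulated film, 33.1 and 32.03 CPM on the unstimulated film and 6.57 and 9.79 CPM on plates.

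Several large lists had no called member although nearly all members had the same sign, beside 47.2% of all genes tested with a positive fold change. All 23 cholesterol synthesis genes had a positive fold change, with a median of 0.53. MVK, mevalonate kinase, had 70.1 and 61.9 CPM on the stimulated film, against 33.1 and 46.5 CPM on plates (log2 fold change 0.73 ± 0.21, adjusted p = 0.12), and HMGCS1, which makes HMG-CoA, had 274 and 290.3 CPM on the stimulated film, against 179 and 211 CPM on plates (log2 fold change 0.53 ± 0.19, adjusted p = 0.22). All 13 mitochondrially encoded genes had a negative fold change, with a median of -0.42, and so did 46 of 47 ribosomal protein genes, with a median of -0.57. All 27 mitosis genes and all 26 DNA replication genes were negative, with medians of -0.33 and -0.40. The summed level of the mitosis genes was 886.5 and 1010.0 CPM on the stimulated film, against 1580.0 CPM in plate replicate 1 and 858.9 CPM in plate replicate 2, so the film libraries lay between the plates. Medians of these lists rested on which plate was used. Without plate replicate 1, the mitosis median was 0.19, the DNA replication median 0.05 and the mitochondrially encoded median -0.01; without plate replicate 2, they were -0.73, -0.74 and -0.69. The ribosomal protein medians were -0.33 and -0.75 in those fits, and the cholesterol synthesis medians 0.33 and 0.67. Of 14 retinoic acid genes none was called. CYP26B1, which degrades retinoic acid, had 1035 and 1473 CPM on the stimulated film, against 212 and 1417 CPM on plates (log2 fold change 0.62 ± 0.73, adjusted p = 0.8), plate replicate 1 being far below the other 3 libraries. In the main fit no member was called among the WNT, YAP and TEAD, cholinergic, fatty acid synthesis, glycolysis, nuclear oxidative phosphorylation, unfolded protein, interferon or HOX lists. Over all 47 lists, 912 different genes were tested, of which 33 rose and 20 fell, beside 0.791% and 0.459% of all genes tested. The lists were chosen with earlier results of these data known, so this count is not a result about them.

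Stimulated and unstimulated PEDOT:PSS could be compared directly, which takes the film and its coating out of the contrast. No gene was called (0% of 18081) by edgeR or by DESeq2, and 126 genes had an unadjusted p under 0.05. For the 24 genes of the naming rule with the largest changes against plates, which are called coding genes with a mean of at least 5 CPM in 1 group, the interval of the difference between stimulated and unstimulated film included 0 for all but HSPA6. EGR1 had 236 and 218 CPM with stimulation and 179 and 203 CPM without it (log2 difference 0.25, 95% interval -0.83 to 1.33). SGK1 had 96.3 and 78.7 CPM with stimulation and 116 and 87.7 CPM without it (-0.22, -0.89 to 0.46). EPAS1 had 7.01 and 8.77 CPM with stimulation and 7.91 and 9.68 CPM without it (-0.16, -1.46 to 1.14), and SLIT1 had 60.4 and 69.9 CPM with stimulation and 68.9 and 67.4 CPM without it (-0.06, -0.53 to 0.40). The libraries of the 2 films interleaved or lay close for these genes, and the intervals still allow differences of the stated size. VGF had 5673 and 4579.7 CPM with stimulation and 5161 and 4685 CPM without it (0.06, -0.83 to 0.94).

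HSPA6 had 8.52 and 5.17 CPM with stimulation and 1.91 and 1.298 CPM without it, a log2 difference of 2.10 with an interval of 0.29 to 3.90 and an adjusted p of 1. The stimulated libraries were both above the unstimulated ones. MT2A had 11.9 and 5.45 CPM with stimulation and 2.81 and 3.19 CPM without it, and CCL2 had 35 reads over the 2 libraries with stimulation and 3 reads over the 2 without it. These 3 genes were called, higher with stimulation, when the low-count filter was dropped (adjusted p = 0.00025 for HSPA6, 0.0089 for MT2A and 0.017 for CCL2). BAG3 had 10.6 and 8.28 CPM with stimulation and 6.77 and 5.14 CPM without it (0.67, -0.24 to 1.58). All 27 mitosis genes were lower with stimulation, with a median of -0.54 and no call. Their sums were 886.5 and 1010.0 CPM with stimulation and 1528.0 and 1240.0 CPM without it. Over all genes tested, 48.9% had a positive log2 difference.

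The unstimulated film was also compared with plates; both contrasts use the same 2 plate libraries, so their values are given side by side and not as independent. Against plates, 267 genes were called on the unstimulated film (1.48% of 18081), 185 higher and 82 lower. The log2 fold changes against plates were 3.02 with stimulation and 2.78 without it for EGR1, 3.72 and 3.84 for EGR3, and 2.54 and 2.89 for INHBA. They were -3.78 and -3.62 for EPAS1, -3.23 and -4.16 for KIT, and -2.30 and -2.25 for NEUROG2. For the stress genes they were 2.28 and 1.99 for NQO1 and 2.17 and 1.499 for BAG3. BAG3 was called with stimulation and not without it (adjusted p = 0.14), and the test between the films did not call it. HMGCS1 went the other way: 0.53 with stimulation (adjusted p = 0.22) and 0.95 without it (adjusted p = 0.026), again with no call between the films.

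**Figure D5:**
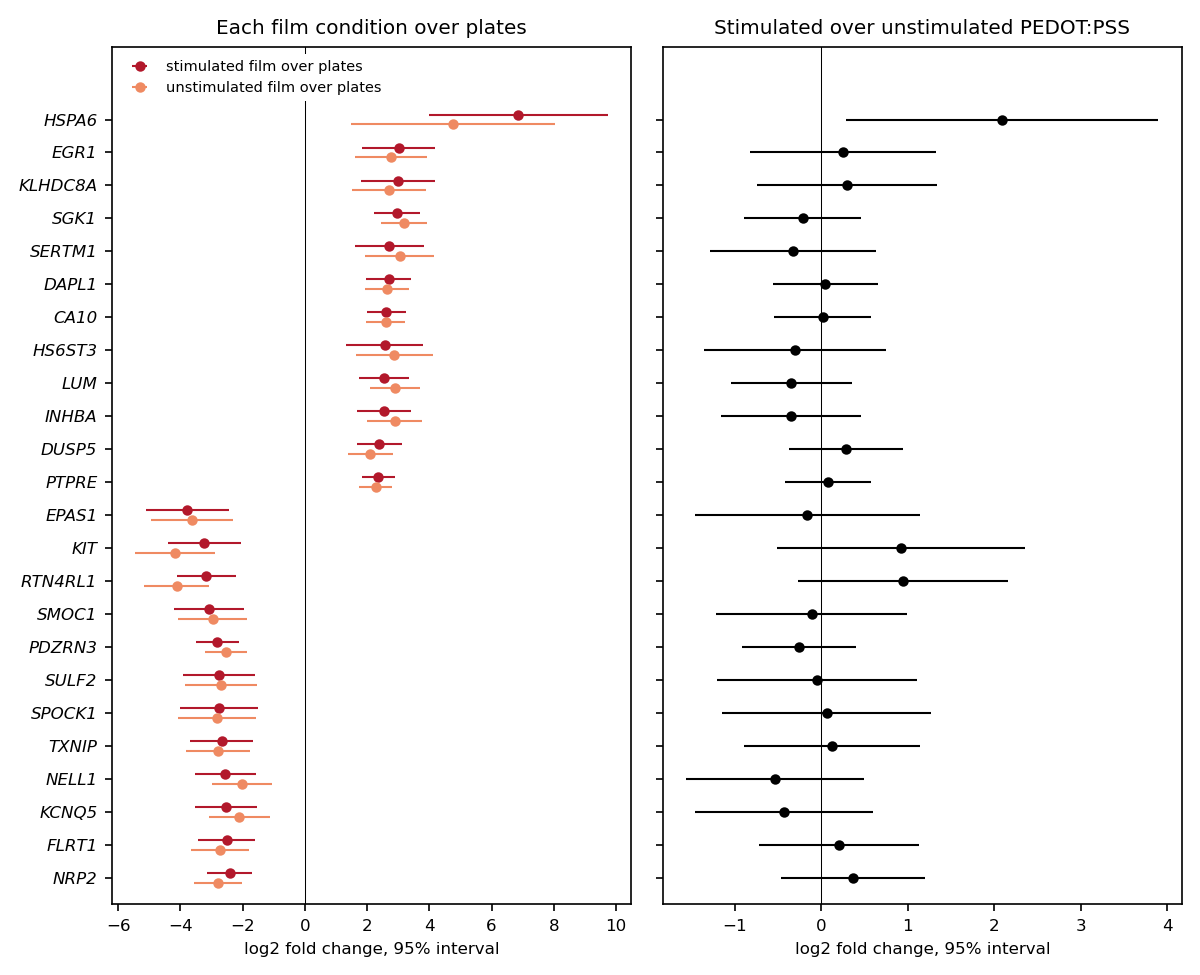
Log2 fold changes with 95% intervals for 24 named genes, the 12 largest rises and 12 largest falls once the naming rule's limit of 5 CPM is applied to called coding genes: left, stimulated (dark red) and unstimulated (orange) PEDOT:PSS over plates, which share the plate libraries; right, stimulated over unstimulated PEDOT:PSS. On the right every interval but that of HSPA6 (0.29 to 3.90) includes 0, for example EGR1 at 0.25 (-0.83 to 1.33).

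The stimulated film was also set against the other stimulated films. Against stimulated P(rGO) no gene was called by edgeR (0% of 18081), and 589 had an unadjusted p under 0.05. DESeq2 called 4, all higher on stimulated PEDOT:PSS: ACTB, the beta-actin gene (adjusted p = 0.018), and the proliferation genes MKI67 (0.018), IQGAP3 (0.018) and FOXM1 (0.035). MKI67 had 2058 and 2183 reads on stimulated PEDOT:PSS, against 577 and 828 reads on stimulated P(rGO). Against stimulated ITO none was called (0%) by edgeR or DESeq2, and 237 had an unadjusted p under 0.05. EGR1 had 236 and 218 CPM on stimulated PEDOT:PSS, 465 and 134 CPM on stimulated P(rGO) and 299 and 176 CPM on stimulated ITO. SGK1 had 96.3 and 78.7 CPM on stimulated PEDOT:PSS, 44.9 and 39.7 CPM on stimulated P(rGO) and 78.2 and 138 CPM on stimulated ITO. EPAS1 had 7.01 and 8.77 CPM on stimulated PEDOT:PSS, 5.64 and 8.18 CPM on stimulated P(rGO) and 6.898 and 7.800 CPM on stimulated ITO. VGF had 5673 and 4579.7 CPM on stimulated PEDOT:PSS, 7574 and 2856 CPM on stimulated P(rGO) and 5469 and 4417 CPM on stimulated ITO, and NQO1 had 43.6 and 36.2 CPM on stimulated PEDOT:PSS, 33.5 and 28.1 CPM on stimulated P(rGO) and 54.2 and 39.2 CPM on stimulated ITO. Among the 27 mitosis genes, 26 were higher on stimulated PEDOT:PSS than on stimulated P(rGO), with a median of 1.02 and no call, and all 27 were lower than on stimulated ITO, with a median of -0.20. Over all genes tested, 49.1% had a positive fold change against stimulated P(rGO) and 48.1% against stimulated ITO.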

How the data were processed

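Polyadenylated RNA was sequenced from directional libraries, per the labels' protocols. The authors deposited counts of reads per gene for each library; STAR and HTSeq and the builds GRCh38.p13 and hg38 are named per the submitters' processing notes, without versions. Whether counting used strand was not found in the labels or headers, so overlapping and antisense genes may share reads. HTSeq's summary rows, which hold 26.1% to 31.8% of a library's reads, stayed out of library sizes and tests.

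From those counts, genes were kept by edgeR's expression filter over the 8 groups, scaled by TMM, and fitted with edgeR 4.0.16 (quasi-likelihood, robust, 1 mean per group, all 16 libraries, 8 residual degrees of freedom) in R 4.3.3; limma 3.58.1 served edgeR. Genes were called at the 0.05 level after Benjamini-Hochberg adjustment over all genes tested. Each standard error was derived from the log2 fold change and its F statistic. Gene positions come from GENCODE 29 and promoters from RefSeq. Counting intervals cover counting error only.

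Alternatives were another scaling, no filter, a replicate block, DESeq2 1.42.0, fewer groups in the fit, and each library left out. The scripts were tested on simulated data. The comparison, the lists and the tests were chosen with earlier results of these data known. Named genes are the 12 called genes with the largest rise and the 12 with the largest fall, out of those with a symbol of a coding gene, a mean of at least 5 CPM in 1 group and groups that do not overlap, the 3 smallest p-values among called members of each list or, with no call, the smallest, and 16 genes fixed by name; further list members appear beside their list. Values of a few genes are not reported here.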

Additional observations from a re-analysis of the deposited data

How the results depend on the processing

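For stimulated PEDOT:PSS against plates the 226 calls were 221 under relative log expression scaling, 258 with the 4 libraries alone, 311 with a replicate block, 896 without the low-count filter, 657 by DESeq2 and 879 without the untreated libraries. Leaving out a library gave 16 to 349. For unstimulated PEDOT:PSS against plates the 267 calls were 262, 244, 339, 872, 664 and 954 in that order, and leaving out a library gave 19 to 312. Dropping the low-count filter gave 3 calls between stimulated and unstimulated PEDOT:PSS, 137 against stimulated P(rGO) and 24 against stimulated ITO; DESeq2 gave 4 against stimulated P(rGO), and the other alternatives gave 0, leaving out a library included (0 to 0). In the labels all first replicates share a name prefix and all second replicates another, and what the prefix marks is not stated. Deviations of same-numbered libraries correlated at -0.01 between stimulated film and plates, 0.141 between stimulated and unstimulated film and 0.167 between unstimulated film and plates, so the numbers were not taken as pairs; of the 59 named calls the replicate block ended that of VGF only. Missing calls also depended on the fit. Of 23 named genes without a call in the main fit, 16 were called without the low-count filter and 10 without the untreated libraries. DESeq2 called 12 of the 22 for which it gave an adjusted p. The direction turned for 3 genes that the main fit did not call, of which CYP26B1 was called when the low-count filter was dropped. CYP26B1 was -0.18 without plate replicate 1 and 2.57 without plate replicate 2. In those fits NTRK2 was -0.52 and 0.034, and CNP was -0.36 and 0.068. The cause of these shifts was not tested. With 2 libraries a group log2 fold changes had a median standard error of 0.26, and depth limits genes with few reads, such as SERPINE2, SEMA3D and HSPA6.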

Other observations

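Transcription factor genes outside the lists were also among the calls; those named here were chosen after their values were seen. POU3F2 had 1.94 and 2.56 CPM on the stimulated film, against 10.9 and 6.49 CPM on plates (log2 fold change -1.95 ± 0.32, adjusted p = 0.011). SOX11 had 126 and 139 CPM on the stimulated film, against 278 and 244 CPM on plates (log2 fold change -0.98 ± 0.20, adjusted p = 0.028). TLX3 had 13.6 and 12.5 CPM on the stimulated film, against 26.1 and 31.4 CPM on plates (log2 fold change -1.14 ± 0.18, adjusted p = 0.007). INSM2 had 28.6 and 29.7 CPM on the stimulated film, against 96.6 and 71.3 CPM on plates (log2 fold change -1.53 ± 0.20, adjusted p = 0.0034). IRX3 had 15.96 and 16.8 CPM on the stimulated film, against 41.96 and 26.1 CPM on plates (log2 fold change -1.05 ± 0.23, adjusted p = 0.039), and IRX5 had 7.87 and 8.11 CPM on the stimulated film, against 22.6 and 14.8 CPM on plates (log2 fold change -1.22 ± 0.27, adjusted p = 0.041). Of the risers, NAB2, a co-repressor of EGR proteins, had 174 and 154 CPM on the stimulated film, against 40.1 and 55.1 CPM on plates (log2 fold change 1.78 ± 0.28, adjusted p = 0.007). TBX3, a T-box repressor, had 246 and 286 CPM on the stimulated film, against 72.6 and 121 CPM on plates (log2 fold change 1.46 ± 0.30, adjusted p = 0.03). SMAD3, which carries activin and TGF-beta signals, had 38.2 and 37.1 CPM on the stimulated film, against 22.8 and 21.8 CPM on plates (log2 fold change 0.76 ± 0.14, adjusted p = 0.016).

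Further calls at the synapse and in the cytoplasm were likewise chosen after their values were seen. NRGN, a calmodulin-binding postsynaptic protein, had 58.5 and 51.2 CPM on the stimulated film, against 13.2 and 12.9 CPM on plates (log2 fold change 2.07 ± 0.29, adjusted p = 0.0042), with the plates nearly equal. LGALS1, which encodes a galectin, had 180.4 and 171 CPM on the stimulated film, against 42.1 and 76.6 CPM on plates (log2 fold change 1.56 ± 0.29, adjusted p = 0.018). TNFRSF12A, the receptor of the cytokine TWEAK, had 33.2 and 25.7 CPM on the stimulated film, against 4.34 and 7.74 CPM on plates (log2 fold change 2.28 ± 0.51, adjusted p = 0.045). PLS3, an actin-bundling protein, had 43.6 and 37.1 CPM on the stimulated film, against 9.83 and 13.2 CPM on plates (log2 fold change 1.81 ± 0.20, adjusted p = 0.0012), OSBPL3, an oxysterol-binding protein relative, had 114 and 104 CPM on the stimulated film, against 28.6 and 37.9 CPM on plates (log2 fold change 1.71 ± 0.20, adjusted p = 0.0012), B4GALT6, a lactosylceramide synthase, had 57.1 and 58.7 CPM on the stimulated film, against 14.1 and 23.3 CPM on plates (log2 fold change 1.63 ± 0.20, adjusted p = 0.0018), and RADIL, a Rap effector, had 39.03 and 41.7 CPM on the stimulated film, against 93.1 and 99.7 CPM on plates (log2 fold change -1.26 ± 0.12, adjusted p = 0.0012). These last 4 kept their call in all 10 alternatives.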
